A study of Mus musculus with 20 samples.

Results

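miR-592-5p (mmu-miR-592-5p) is the 5′ arm of the Mir592 hairpin, which lies inside the glutamate receptor gene Grm8. It is 1 of 1191 mature miRNAs with at least 1 read in this survey of mouse serum small RNA, and 1 of the 360 that passed the filter on low counts. It was chosen by its counts in old dwarf serum, which earlier results of these data showed to be high, so its levels and differences that involve old dwarf libraries are a description and support nothing beyond that choice. Of its 517 reads in 20 libraries, 423 came from the 5 old dwarf libraries, and 320 of these from a single library.

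Serum of female mice was sequenced in 4 groups of 5 libraries: old Ames dwarf mice (21 to 22 months), old normal mice (21 to 22 months), young Ames dwarf mice (5 to 6 months) and young normal mice (5 to 6 months). The strain of all of them is labelled Ames dwarf, on a heterogeneous background, and the labels give no further genotype for the normal mice. Ames dwarf mice lack growth hormone, prolactin and thyrotropin, and live long. The labels do not say whether each library is a separate mouse, so a p-value here measures the spread between these samples.

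A miRNA is cut from its hairpin and pairs with target mRNAs mainly through its seed, bases 2 to 8 counted from the 5′ end. A change of 1 base in where the 5′ end is cut gives another seed. Grm8 encodes a presynaptic metabotropic glutamate receptor of brain and retina, and a miRNA within a gene is often, though not always, made from that gene's transcript. Serum miRNAs come from blood cells and many tissues, and serum holds only what was released. In such a bulk sample, release from more cells and more RNA per cell cannot be told apart.

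Mir592 lies on the minus strand of chromosome 6 at chr6:27936655-27936750 (RefSeq, GRCm38.p6). It falls in an intron of 218685 bases (chr6:27762498-27981182) in all 4 protein-coding Grm8 transcripts of GENCODE M21 that span it. A further, noncoding Grm8 transcript has the hairpin inside its exon 6 (chr6:27934377-27937668). The RefSeq hairpin below has both mature arms in capitals, and shows which stretch the counted reads come from. In the mature sequences, bases 2 to 8 are in capitals, and all are written 5′ to 3′.
Mir592 hairpin, RefSeq: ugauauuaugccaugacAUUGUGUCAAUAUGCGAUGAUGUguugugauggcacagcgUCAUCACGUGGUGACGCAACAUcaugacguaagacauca
miR-592-5p, RefSeq: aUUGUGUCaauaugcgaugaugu
miR-592-5p, consensus of the pooled reads: uUGUGUCAauaugcgaugaug
miR-592-3p, RefSeq: uCAUCACGuggugacgcaacau

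The consensus of the miR-592-5p reads did not start where the RefSeq arm starts. The authors' deposited miRDeep2 report, made on all libraries together, gives a consensus of 21 bases that begins 1 base after the RefSeq 5′ end and spans chr6:27936712-27936732. The RefSeq arm has 23 bases and spans chr6:27936711-27936733. The seed is UGUGUCA from the pooled consensus and UUGUGUC from RefSeq, and the deposited report names human hsa-miR-592 as an example with the same seed as the consensus. No other mature mouse miRNA among the 1679 names of the RefSeq table has either seed (0 for both). A start 1 base late was not common in this report. Among 192 arms with at least 100 pooled reads that could be placed in their RefSeq hairpin, 171 (89.1%) started at the RefSeq base and 9 (4.69%), miR-592-5p included, started 1 base after it. The consensus is pooled, and old dwarf replicate 1 alone gave 61.9% of its reads, so it says little of the start in the other libraries.

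Reads came from the 5′ arm only. The deposited report lists 517 reads on this arm, 0 in the loop and 0 on the 3′ arm, with a miRDeep2 score of 5.1, and miR-592-3p has 0 reads in each of the 20 libraries. A count of 0 allows a share of the 3′ arm of up to 0.580% of the hairpin's reads, by counting error only. An arm without reads was not rare at this depth. Of 77 other hairpins with 250 to 1000 pooled reads, 22 had 0 reads on their minor arm.

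In old dwarf serum miR-592-5p was spread over a wide range. Replicates 1 to 5 held 172.3, 26.9, 5.63, 5.46 and 4.97 CPM (counts scaled to library size with TMM factors), from 320, 75, 10, 8 and 10 reads. Replicate 1 stood 6.41-fold above replicate 2, and replicates 3 to 5 lay close together. The exact 95% Poisson intervals of replicates 1 and 2 were 153.9 to 192.2 CPM and 21.1 to 33.7 CPM, and those of replicates 3 to 5 all lay between 2.36 and 10.8 CPM. Such intervals cover counting error only, and treat reads as independent molecules, which amplified reads are not. They say nothing of the spread between samples.

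In the 15 libraries of the other groups miR-592-5p was near the limit of detection. They held 1 to 14 reads each, or 0.896 to 5.45 CPM, where 3 reads are worth 0.844 to 2.69 CPM. Old normal replicates 1 to 5 stood at 1.51, 0.896, 3.18, 5.45 and 4.81 CPM. Young dwarf replicates 1 to 5 stood at 2.37, 0.963, 1.11, 1.53 and 3.51 CPM. Young normal replicates 1 to 5 stood at 1.46, 2.93, 2.46, 2.25 and 2.82 CPM. These 3 groups overlap, and no library in them came near the upper 2 old dwarf libraries. Old dwarf replicates 1 and 2 were 31.6-fold and 4.93-fold above the highest of the 15.

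**Figure D1:**
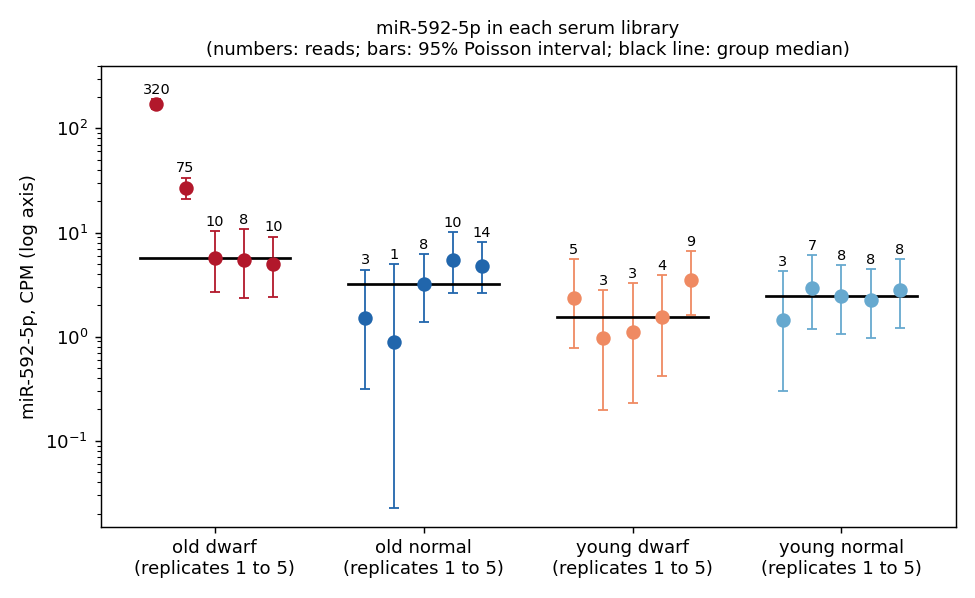
Level of miR-592-5p in each library in CPM on a log axis, by group, with replicates 1 to 5 from left to right. Points carry exact 95% Poisson intervals, the numbers are reads and the black lines are group medians. Old dwarf replicates 1 and 2 stand at 172.3 and 26.9 CPM, and all other libraries lie at or below 5.63 CPM.

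By mean, the order was old dwarf (43.0 ± 72.8 CPM), old normal (3.17 ± 1.99 CPM), young normal (2.39 ± 0.586 CPM) and young dwarf (1.90 ± 1.05 CPM) (SD, n = 5 each). By median, it was the same order at 5.63, 3.18, 2.46 and 1.53 CPM. Neighbours in this order did not separate beyond their spread. Old normal replicate 4, at 5.45 CPM, lay above old dwarf replicate 5, at 4.97 CPM, and within each of the pairs of old normal with young normal and of young normal with young dwarf the ranges overlap. The mean of old dwarf serum was 13.6-fold that of old normal serum, while the median was 1.77-fold. Against young dwarf serum the ratios were 22.7-fold by mean and 3.68-fold by median.

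Whether the lower 3 old dwarf libraries stood apart from the other groups changed with the scaling. On TMM-scaled CPM, 1 of the 15 other libraries reached the lowest old dwarf library. In the authors' deposited RPM, which scale to the plain column sum, old dwarf replicates 1 to 5 had 131.9, 12.3, 2.27, 3.68 and 3.14 RPM, and 5 of the 15 other libraries, with up to 3.04 RPM, reached the lowest of these. In old dwarf against young dwarf serum no library overlapped on CPM, at 4.97 to 172.3 against 0.963 to 3.51 CPM. The same held for 3 of 360 miRNAs (0.833%), the others being miR-34c-3p and miR-501-3p. The deposited RPM of old dwarf and young dwarf libraries did overlap, at 2.27 to 131.9 against 0.89 to 3.04 RPM.

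A scale that needs no normalization is the rank within a library. In old dwarf replicate 1 miR-592-5p was the 105th most abundant of 615 detected miRNAs, and in old dwarf replicate 2 the 185th of 683. In old dwarf replicates 3 to 5 it ranked 287th to 304th. Its rank ran from 292nd to 429th among old normal libraries, from 330th to 448th among young dwarf libraries and from 348th to 400th among young normal ones. The upper 2 old dwarf libraries thus stood apart by rank as well, and the lower 3 lay beside the best old normal rank.

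The filter on low counts kept miR-592-5p through its high group. The filter needed a CPM of 4.73 on unscaled library size in at least 5 libraries, and 6 libraries reached it: 4 old dwarf, 1 old normal, 1 young dwarf and 0 young normal. In fits to 1 pair of groups alone, it passed for old dwarf with old normal and was removed for the other pairs. Its differences between old dwarf and other serum are therefore no evidence beyond the choice of this miRNA.

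As a description, the fitted difference of old dwarf over old normal serum was log2 3.69 ± 0.85 SE, and that of old dwarf over young dwarf serum was log2 4.49 ± 0.89 SE. The dwarf age effect minus the normal age effect was log2 4.04 ± 1.24 SE. These comparisons share their old dwarf libraries. In old dwarf over old normal serum, which served the choice, edgeR called 95 of 360 miRNAs (26.4%) at an adjusted p under 0.05, and nothing is read from miR-592-5p being among them. Without old dwarf replicate 1 these 3 differences were log2 1.72 ± 0.56, 2.51 ± 0.57 and 2.07 ± 0.81 (SE). With old dwarf replicate 1 kept and any other library left out, the old dwarf over old normal difference was at least log2 3.52. Library totals without TMM factors gave log2 4.23 for old dwarf over old normal serum while the median of all 360 miRNAs stood at 0.23, against a median of -0.06 with TMM factors.

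**Figure D2:**
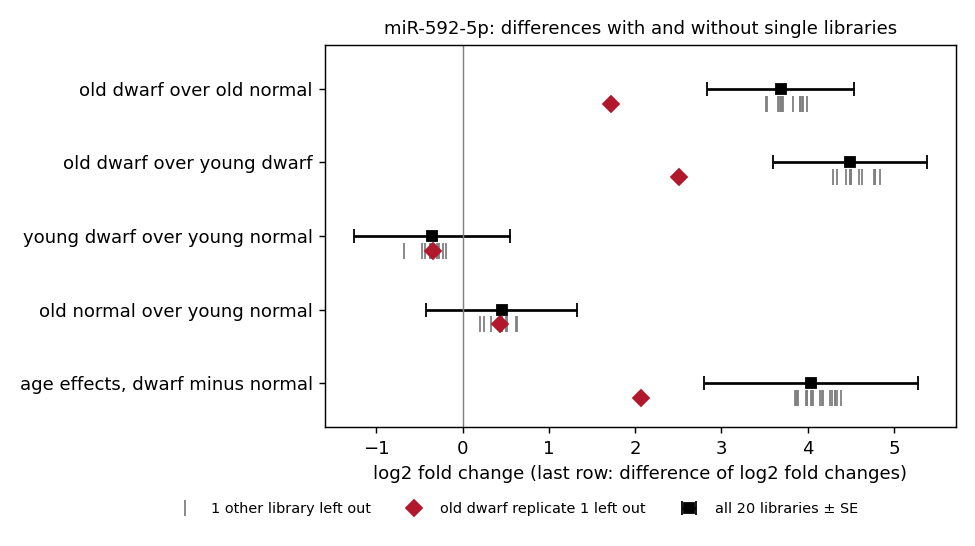
Log2 fold changes of miR-592-5p, and in the last row the difference of age effects, from the model of 4 groups. Black squares and bars are the estimate and its SE over all 20 libraries, grey ticks leave out 1 library other than old dwarf replicate 1, and red diamonds leave out old dwarf replicate 1. Without that library old dwarf over old normal stands at log2 1.72, against 3.69 with it.

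The difference of young dwarf from young normal serum holds no old dwarf library and was tested in the model of 4 groups. The young libraries may still have served as a baseline for the rise that chose miR-592-5p. The filter also kept miR-592-5p mainly through old dwarf libraries. Young dwarf serum held 1.90 ± 1.05 CPM of miR-592-5p, against 2.39 ± 0.586 CPM for young normal serum (SD, n = 5 each). The difference was log2 -0.35 ± 0.91 SE and was not past the threshold (edgeR quasi-likelihood test, adjusted p 0.94 over 360 miRNAs). The approximate 95% interval of log2 -2.13 to 1.43 allows a change of either sign. Its width comes from a spread estimated over all 4 groups, old dwarf included, and without old dwarf replicate 1 the difference was log2 -0.34 ± 0.58 SE (edgeR adjusted p 0.883). A 2-sided exact permutation test of log2 CPM over the young libraries alone, 5 against 5, gave p 0.325. In this comparison edgeR called 0 of 360 miRNAs (0%), 28 had a raw p under 0.05, and DESeq2 called 6. Old normal over young normal serum, whose old libraries took part in the choice, differed by log2 0.45 ± 0.88 SE and is not tested.

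miR-592-5p varied widely among old dwarf libraries. Its log2 range over the 5 old dwarf libraries was 4.90, against a median range of 1.42 over the 360 miRNAs. Larger ranges were found for 2 miRNAs, the hepatocyte miRNA miR-122-5p at 6.18 and miR-381-3p of the imprinted Dlk1-Dio3 locus at 5.12. Its log2 range was 1.86 among old normal libraries, where the median of all 360 was 1.11. Among young dwarf libraries it equalled the median, at 1.27. Among young normal libraries it was 0.71, where the median was 1.48. The fitted biological coefficient of variation of miR-592-5p was 83.1%, and 19 of the 360 miRNAs had a higher one.

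**Figure D3:**
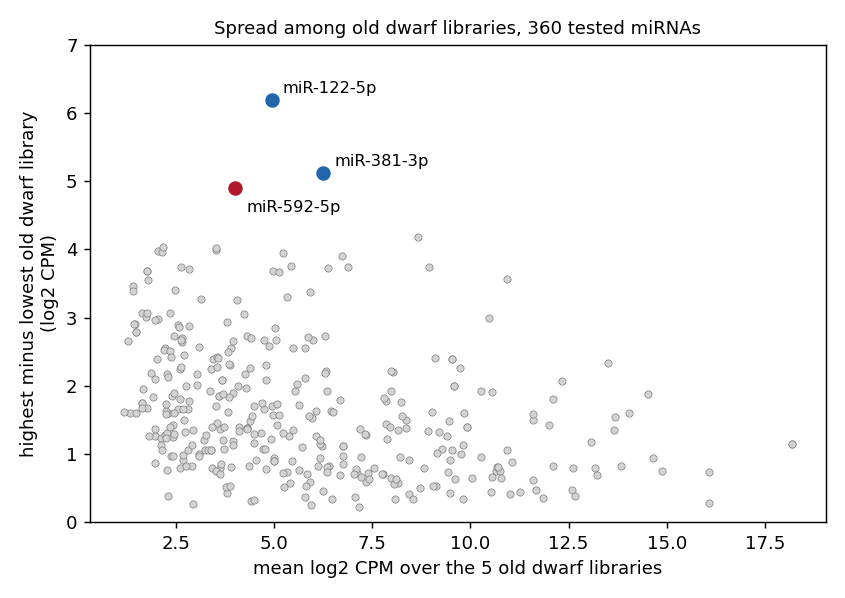
Spread of each of the 360 tested miRNAs among the 5 old dwarf libraries (highest minus lowest log2 CPM) against its mean log2 CPM in those libraries. miR-592-5p (red) has a range of 4.90, below miR-122-5p at 6.18 and miR-381-3p at 5.12 (blue).

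In old dwarf replicate 1 no other miRNA stood out as miR-592-5p did. Among 260 miRNAs whose old dwarf mean reached 10 CPM, the log2 ratio of this library to the median of the other 4 old dwarf libraries, each plus 1 CPM, was 4.73 for miR-592-5p and -0.11 for the median miRNA. The next was miR-224-5p, from an intron of the GABA receptor gene Gabre, at a log2 ratio of 1.46. It stood at 44.7 CPM in old dwarf replicate 1 and 3.94 to 28.3 CPM in the other 4. miR-100-5p, miR-200b-3p of epithelia and miR-431-5p of the Dlk1-Dio3 locus followed at log2 ratios of 1.40, 1.38 and 1.29. These 4 lay within the range of the other groups or less than 2-fold above it, with a highest value outside old dwarf serum of 24.5 CPM for miR-224-5p, 181.7 CPM for miR-100-5p, 147.8 CPM for miR-200b-3p and 36.3 CPM for miR-431-5p. miR-592-5p is the 1 miRNA of the 260 with a log2 ratio over 2. This library was picked as the one highest in miR-592-5p, not in the other miRNAs, so the ranking favours miR-592-5p. The ranking describes this library and is no test.

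**Figure D4:**
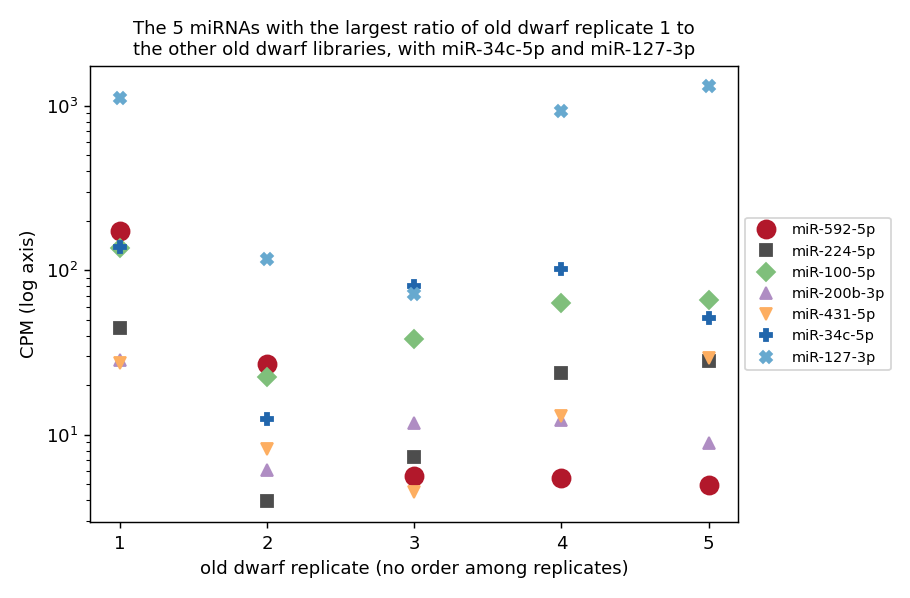
CPM on a log axis in old dwarf replicates 1 to 5 for the 5 miRNAs with the largest ratio of replicate 1 to the other old dwarf libraries, and for miR-34c-5p and miR-127-3p. miR-592-5p stands at 172.3 CPM in replicate 1 and 4.97 to 5.63 CPM in replicates 3 to 5, while miR-127-3p is at 1117 CPM in replicate 1 and 1310 CPM in replicate 5.

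Of the library measures below, only the TMM factor placed old dwarf replicate 1 outside the range of the other old dwarf libraries. It had 1478879 counts, where old dwarf libraries ran from 1343137 to 3597213 and all 20 from 1343137 to 4710263. Its TMM factor of 1.257 was the highest of the old dwarf libraries, where the others ran from 0.698 to 1.092. The highest young dwarf factor was 1.513. Its haemolysis index, the log2 ratio of red-cell miR-451a to miR-23a-3p, was 5.34, within 4.91 to 6.09 of the old dwarf group. Of the 360 miRNAs, 10 were highest in this library, against 3 to 57 in each of the other libraries.

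Old dwarf replicate 2 was compared in the same way after its values were seen. Its log2 ratio to the median of old dwarf replicates 3 to 5 was 2.11 for miR-592-5p, the 8th highest of 260. The largest ratio was that of miR-128-3p, a brain-enriched miRNA, at 8673 CPM against a median of 806.5 CPM (log2 3.43), with 5751 CPM in old dwarf replicate 3. miR-375-3p of pancreatic islets and other endocrine cells stood at 1459 against 257.2 CPM (log2 2.50). miR-375-3p, the 1 tested of 3 endocrine miRNAs, had 188.4, 1459, 2295, 257.2 and 171.4 CPM in old dwarf replicates 1 to 5, so it was higher still in replicate 3.

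Few brain-enriched miRNAs were abundant in serum. Of 16 on a neural list, all had reads but only 5 were abundant enough to test. The other 11, which include the neuron miRNAs miR-124-3p and miR-9-5p and the oligodendrocyte miRNA miR-219a-5p, had 4 to 120 reads over all libraries. In old dwarf replicate 1 these 11 had 9 reads together, and 6 of them, miR-124-3p, miR-9-5p and miR-9-3p among them, had 0. The mean of the 5 tested members was 5.82 log2 CPM in this library, within 5.79 to 6.10 over old dwarf and 5.62 to 6.45 over old normal libraries.

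In old dwarf over old normal serum 1 of the 5 tested neural miRNAs was higher and 0 were lower, against 16.1% higher and 10.3% lower among all 360. Their median was log2 -0.29, against -0.06 for all. The higher one was miR-218-5p, encoded in introns of the Slit genes and abundant in motor neurons, with 31.2, 2.87, 1.13, 28.7 and 27.8 CPM in old dwarf replicates 1 to 5, against 1.92 ± 0.357 CPM for old normal serum (SD, n = 5). Its difference was log2 3.21 ± 0.85 SE (edgeR adjusted p 0.0113, and 0.000414 to 0.289 over 28 alternatives, with only the haemolysis index in the model past 0.05). miR-128-3p averaged 3380 ± 3649 CPM among old dwarf libraries, against 10110 ± 3684 CPM among old normal ones (log2 -1.58 ± 0.80 SE, edgeR adjusted p 0.129). miR-132-3p, induced by neuronal activity, averaged 76.4 ± 9.80 CPM among old dwarf libraries, against 68.5 ± 15.2 CPM among old normal ones (log2 0.16 ± 0.21 SE, edgeR adjusted p 0.583). The haemolysis index did not overlap between these groups, at 4.91 to 6.09 in old dwarf and 3.13 to 4.83 in old normal libraries, and with it in the model edgeR called 0 of 360 miRNAs, with 66 at a raw p under 0.05.

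Within 5 Mb of Mir592, 13 names from 7 precursor genes had reads, at 1.09 to 3.13 Mb, and 7 were abundant enough to test. In old dwarf over old normal serum 0 of the 7 were higher and 1 was lower, against 16.1% higher and 10.3% lower among all 360, so these counts are near the background. Their median was log2 -0.54, against -0.06 for all. The lower one was miR-335-3p of the imprinted gene Mest (chr6:30741299-30741396), with 6.51 ± 2.27 CPM among old dwarf libraries, against 20.3 ± 7.77 CPM among old normal ones (SD, n = 5 each). Its difference was log2 -1.64 ± 0.45 SE (edgeR adjusted p 0.0133, and 0.00543 to 0.281 over 29 alternatives, with only the haemolysis index in the model past 0.05). miR-335-5p from the same hairpin averaged 36.05 ± 15.4 CPM among old dwarf libraries, against 21.4 ± 4.57 CPM among old normal ones (log2 0.75 ± 0.39 SE, edgeR adjusted p 0.134).

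The closest of these neighbours, miR-129-5p of brain, had 103 reads in all libraries, which can also come from another hairpin. The sensory-organ miRNA miR-182-5p, at 2.23 Mb (chr6:30165918-30165992), stood at 358 CPM in old dwarf replicate 1 and averaged 303.6 ± 78.9 CPM among old dwarf libraries, against 535 ± 715.2 CPM among old normal ones (SD, n = 5 each). Its difference was log2 -0.82 ± 0.61 SE (edgeR adjusted p 0.307). Over the 20 libraries the 7 neighbours had a Spearman rho with miR-592-5p between -0.18 and 0.11.

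No miRNA followed miR-592-5p closely across the libraries. Over 20 libraries and 359 other miRNAs the highest Spearman rho in log2 CPM was 0.477, and 0 exceeded 0.5. The points share library depth and scaling, and all but old dwarf replicates 1 and 2 rest on 14 or fewer reads of miR-592-5p. The 5 most alike were miR-34c-3p, the heart and slow-muscle miRNA miR-208b-3p, miR-34b-3p, let-7i-3p and miR-874-3p, at rho 0.477, 0.463, 0.439, 0.435 and 0.415. With group means removed their rho lay between -0.11 and 0.191, and without old dwarf replicate 1 between 0.349 and 0.461. The 3 least alike were miR-298-5p and miR-20a-5p at rho -0.495 and miR-542-3p at rho -0.414.

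miR-34c-3p, the most alike by rank, peaked in another library. It is an arm of the p53-responsive miR-34c hairpin and stood at 12.4, 2.15, 28.2, 8.87 and 3.98 CPM in old dwarf replicates 1 to 5. It averaged 11.1 ± 10.4 CPM over these libraries, against 1.62 ± 0.365 CPM for young dwarf serum (SD, n = 5 each). In old dwarf over young dwarf serum edgeR called 2 of 360 miRNAs (0.556%), both higher. They were miR-34c-3p and miR-592-5p, and nothing is read from the call of miR-592-5p, whose old dwarf values served the choice. The difference of miR-34c-3p was log2 2.73 ± 0.59 SE (edgeR adjusted p 0.0292, and 0.00189 to 0.208 over 27 alternatives, 10 of them past 0.05). miR-34c-3p is named here for its likeness to miR-592-5p, which fell to rho 0.023 with group means removed. Its list had also been seen to rise in these data, so its p is no independent support. The count of 2 was 0 in edgeR without old dwarf replicate 1 or without any 1 of the 5 young dwarf libraries, and 10 to 25 miRNAs then had a raw p under 0.05. It was 1 without old dwarf replicate 3 or 4.

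The other arm of that hairpin, miR-34c-5p, was highest in old dwarf replicate 1, as miR-592-5p was. It stood at 138.4, 12.5, 80.6, 102.3 and 51.2 CPM in old dwarf replicates 1 to 5, against 3.63 ± 2.37 CPM in old normal serum (SD, n = 5). miR-127-3p of the Dlk1-Dio3 locus stood at 1117, 116.8, 71.5, 932.1 and 1310 CPM in old dwarf replicates 1 to 5, against 26.9 ± 10.7 CPM in old normal serum (SD, n = 5). Both were lower in old dwarf replicate 2, the second highest for miR-592-5p, than in old dwarf replicates 4 and 5, where miR-592-5p stood at 5.46 and 4.97 CPM. All 4 of 4 tested members of the list with miR-34 and miR-449 arms were higher in old dwarf over old normal serum, and so were 7 of 7 on the Dlk1-Dio3 list, against 16.1% of all 360, but both lists had been seen to rise before they were written down.

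Among old dwarf libraries, marker lists of liver, muscle and red cells were highest in replicate 3 or 4, and lymphocyte and platelet miRNAs in replicate 2. In old dwarf over old normal serum 0 of 4 liver, 0 of 6 muscle and 0 of 4 red-cell members were called, and 3 of 5 lymphocyte and platelet members were lower, against 16.1% higher and 10.3% lower among all 360. The mean of 4 liver miRNAs was 5.94 and 6.02 log2 CPM in old dwarf replicates 1 and 2, and 6.39, 9.17 and 8.27 in replicates 3 to 5. The mean of 6 muscle miRNAs was 4.68 and 4.72 log2 CPM in replicates 1 and 2, and 4.06 to 5.35 in replicates 3 to 5. The mean of 4 red-cell miRNAs was 12.1 and 12.4 in replicates 1 and 2, and 12.3 to 12.5 in replicates 3 to 5. Lymphocyte and platelet miRNAs averaged 6.92 and 7.27 in replicates 1 and 2, and 6.70 to 7.21 in replicates 3 to 5. Over all 20 libraries the means of the 8 lists had a Spearman rho with miR-592-5p between -0.16 and 0.40.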

How the data were processed

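Serum RNA was purified by miRNeasy and sequenced as TruSeq small RNA, per the labels' protocols. The submitters' processing notes list Bowtie 0.12.8, bedtools, edgeR and GRCm38, with no roles. The deposited read counts, 1 column per library, are laid out, per the file headers, as miRDeep2's quantifier writes them. The authors' RPM values equal the count over the column sum to within 0.005. The authors' miRDeep2 report gives a score and other pooled read numbers per hairpin. No sample column was left unused (0), and no libraries were identical (0).

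For each of 1915 names the precursor row with the most reads was kept. Counts were tested with edgeR 4.0.16 (limma 3.58.1, R 4.3.3): quasi-likelihood test, 4-group model, TMM factors, filterByExpr by group (minimum count 10), Benjamini-Hochberg over 360 miRNAs, threshold 0.05. Each standard error was the log2 fold change divided by √F. Log2 CPM used a prior count of 2. DESeq2 1.42.0 was an alternative. The test was checked on simulated data. Sequences are from RefSeq (GRCm38.p6), where both arms matched by name, and gene positions from RefSeq and GENCODE M21. Named miRNAs are miR-592 arms, the 5 most and 3 least alike by Spearman rho, the 5 that stood out in old dwarf replicate 1, neighbours within 5 Mb, called or abundant list members, and a few others where a result turned on them. Names outside this rule were chosen after their values were seen. miR-592-5p and all 8 lists were chosen with earlier results of these data known. Same-numbered libraries were not paired.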

Additional observations from a re-analysis of the deposited data

Results flagged for a closer look

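Old dwarf replicate 1 lay far from its group in miR-592-5p. At 172.3 CPM its gap to the next old dwarf library, 26.9 CPM, was 0.869 of the group's whole range, where Dixon's 95% critical value for 5 samples is 0.71. On the log2 scale the same gap was 0.54 of the range and did not pass. In the other 3 groups no library passed on either scale. Chance alone would flag about 1 in 20 groups if values were normally distributed, which CPM of a low-count miRNA need not be. Since miR-592-5p was chosen for its old dwarf values, the gap describes those libraries and is no independent test.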

How the results depend on the processing

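For miR-592-5p, young dwarf over young normal kept its sign and stayed past no threshold in every alternative run (log2 -0.68 to -0.16, edgeR and DESeq2 adjusted p 0.831 to 0.991). Leaving out 1 library gave log2 1.72 to 3.99 for old dwarf over old normal, 2.51 to 4.84 for old dwarf over young dwarf and 2.07 to 4.39 for the difference of age effects. The low end was old dwarf replicate 1 each time. Other settings gave log2 2.78 to 4.23, 3.75 to 4.602 and 3.30 to 4.39. Old normal over young normal ran from log2 0.005 (library totals, where the median of all miRNAs fell by 0.42) to 0.63. Fits of the compared groups alone dropped miR-592-5p except in old dwarf over old normal.

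The 95 calls in old dwarf over old normal became 0 in edgeR with the haemolysis index in the model (66 with a raw p under 0.05), 63 with those groups alone, and 51 to 143 with 1 library left out. Without old dwarf replicates 1, 2, 4 and 5 they were 53, 143, 55 and 51. The 2 calls in old dwarf over young dwarf became 0 in edgeR with library totals, with those groups alone or with the replicate number as a block (47, 11 and 14 with a raw p under 0.05), 1 with summed precursor rows, and 0 to 2 with 1 library left out. The 0 calls in young dwarf over young normal became 6 in DESeq2, 1 without the filter and 1 with the haemolysis index. The cause of these changes was not tested.

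Same-numbered libraries did not deviate together. Of 30 such pairs, 13 had a correlation over 0.1 (lowest -0.676, highest 0.808), and 3 of 20 libraries correlated best with their own number. With the replicate block miR-592-5p was log2 -0.52 in young dwarf over young normal (edgeR adjusted p 0.91) and 2.78 in old dwarf over old normal. Depth limits the 15 libraries outside old dwarf serum, where miR-592-5p rests on 1 to 14 reads. Old dwarf replicates 3 to 5, with 10, 8 and 10 reads, are limited in the same way.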

Other observations

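Old dwarf replicate 2 held more of several miRNAs unrelated to the Grm8 locus than the median of old dwarf replicates 3 to 5. Such a median can hide a high replicate 3, as for miR-375-3p at 1459 CPM in replicate 2 and 2295 CPM in replicate 3. Against the median of old dwarf replicates 3 to 5, miR-215-3p stood at 94.3 against 15.01 CPM (log2 2.57) and miR-423-5p at 3970 against 766.2 CPM (log2 2.37). These were chosen after their values were seen, have no replicate in this library and carry no test.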
